A study of Mus musculus with 3 samples.

Results

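The 10 lysosomal genes Lipa, Psap, Npc2, Ctsd, Ctsb, Ctsl, Ctss, Ctsz, Lgmn and Grn were described in single cells of irradiated mouse lung, by cell class and by library. They were listed by name, and all 10 of 10 were found among the 22954 genes of each table. The list was chosen by name with earlier values of these data in view, and the values it was selected on include Lipa and Psap listed at 0 in CONV fibroblast-like cells and Npc2 above 0 in fibroblast-like cells of CONV alone. Those values are given as a description. The libraries came from 3 female C57BL6/J mice labelled WT (wild-type), 1 per condition, whose lungs were collected 5 months after thoracic irradiation with 13 Gy. Where 3 values follow each other without a name, they are in the order CONV, CONV AsiDNA, FLASH. The CONV mouse received irradiation at a conventional dose rate and no AsiDNA, and the FLASH mouse received it at an ultra-high dose rate and no AsiDNA. The CONV AsiDNA mouse received conventional irradiation with AsiDNA, a DNA molecule that mimics a double-strand break, in daily injections of 100 mg/kg, with 200 mg/kg given last, when it was irradiated. The methods give an age of 8 to 9 weeks for the mice, while the design text of the series gives 5 month mice. All 3 mice were irradiated, and non-irradiated lungs were not analysed here.

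Lysosomes are acidic organelles in which proteins, lipids and sugars are taken apart. Lipa (lysosomal acid lipase) frees cholesterol and fatty acids from lipid esters, Npc2 binds the freed cholesterol and passes it to the membrane protein NPC1, and Psap is the precursor of the saposins that present sphingolipids to their hydrolases. Ctsd is an aspartic protease, Ctsb, Ctsl, Ctss and Ctsz are cysteine cathepsins, Lgmn is an asparaginyl endopeptidase that processes other cathepsins, and Grn encodes progranulin, which is cleaved to granulins in the lysosome. Alveolar macrophages take up surfactant and cell debris and depend on this machinery, and many lysosomal genes carry an E-box element (CLEAR) bound by TFEB and its relatives.

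The genes lie on 9 chromosomes of GRCm38 (GENCODE vM21, protein-coding genes). Lipa is at chr19:34492318-34527474, Psap at chr10:60277627-60302597, Npc2 at chr12:84754562-84773152 and Lgmn at chr12:102394084-102439813. Ctsd is at chr7:142375911-142388038, Ctsb at chr14:63122462-63145923, Ctsl at chr13:64359337-64370890, Ctss at chr3:95526786-95556403, Ctsz at chr2:174427493-174439039 and Grn at chr11:102430315-102437048. On the same strand, Ctsd overlaps Gm49369, Ctsl overlaps Gm49230 and Ctss overlaps the pseudogene Hmgb1-ps5, and how reads shared by such pairs were counted is not known here. RefSeq promoter windows (build GRCm38.p6, 250 bases before to 50 after a start site) were found for 9 members, in 11 windows; Ctsb has no entry. The E-box CACGTG, which reads the same on both strands, was in 3 of these 11 windows, those of Ctsd, Lgmn and Ctsl, and in 7.15% of all 32851 windows. The longer element TCACGTGA, which contains the E-box, was in the Ctsd window only, starting 99 bases before the start site, against 0.974% of all windows. TGAGTCA, an AP-1 element searched on both strands, was in the Psap window, 18 bases before the start site, against 5.20% of all windows. GAGGAAGT, a PU.1 element searched on both strands, was in the Ctss window, against 3.20%. Stretches of 4 genes are shown, that of Ctsd because it holds the full element and those of Lgmn, Ctsl and Psap because these genes hold a motif and differed more than 2-fold between libraries in the macrophages described next. For Lgmn (chr12:102439093-102439342, minus strand, within an intron of the GENCODE gene) and Psap (chr10:60277378-60277626, plus strand) they are the bases upstream of the start site. For Ctsd (chr7:142387908-142387937, minus strand) and Ctsl (chr13:64370739-64370768, minus strand) they are the 30 bases around the motif, which reach into the annotated 5′ UTR of another isoform. Capitals mark TCACGTGA in Ctsd, CACGTG in Lgmn and Ctsl and TGAGTCA in Psap, and a match of letters is no evidence of binding.
Ctsd: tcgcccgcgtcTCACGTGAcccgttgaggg
Ctsl: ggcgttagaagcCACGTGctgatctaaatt
Lgmn: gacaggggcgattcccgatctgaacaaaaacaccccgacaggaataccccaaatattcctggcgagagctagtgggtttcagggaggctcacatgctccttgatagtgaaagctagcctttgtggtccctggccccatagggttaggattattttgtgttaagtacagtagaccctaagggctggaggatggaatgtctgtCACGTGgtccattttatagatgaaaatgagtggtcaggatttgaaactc
Psap: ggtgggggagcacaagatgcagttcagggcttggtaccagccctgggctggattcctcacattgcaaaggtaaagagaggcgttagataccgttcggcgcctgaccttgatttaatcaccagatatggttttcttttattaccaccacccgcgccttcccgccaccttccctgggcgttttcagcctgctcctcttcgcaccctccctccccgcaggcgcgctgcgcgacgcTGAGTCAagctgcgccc

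The libraries hold 6372, 6983 and 6267 cells. Each deposited value is ln(1 + x), where x, a whole number, is here called the adjusted count, and the median total of x per cell was 3450, 3678 and 3621. These totals span a narrow range (1432 to 8462 over all 3 libraries) and the low background of raw droplet counts is missing, so a gene without a value is given as listed at 0, with no limit attached. Levels are adjusted counts as parts of the class total, scaled to a total of 1000000 (CPM). Shares are percentages of cells above 0, and their 95% intervals (exact, Clopper-Pearson) account for the sampling of cells and for nothing else. With 1 mouse per condition no difference could be tested, and differences between conditions, mice and library preparations cannot be told apart. A cell was assigned to 1 of 18 classes by its share of the class's markers above 0, which placed 18873 of 19619 cells. The 2165 alveolar macrophage-like (AM-like) cells had a median of 11 of 16 AM markers above 0 and, next, a median of 2 monocyte markers, and 17 of them lay near the limit of the gate. Between libraries, 42 cell barcodes were shared. The CONV library held 58 monocyte-like cells, against 332 and 419. Mitochondrial genes made up a median of 2.07%, 0.217% and 2.37% of the counts of AM-like cells.

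AM-like cells carried the 10 genes at the highest summed level of all 18 classes in each library. The genes made up 4.67% of the adjusted counts of AM-like cells in CONV (n = 1017 cells), and 2.54% (n = 668) and 2.48% (n = 480) in the others. Interstitial macrophage-like cells (IM-like) came next, with 1.73%, 1.36% and 1.20%. AT2-like cells, the surfactant-making cells of the alveolus, reached 0.961%, 0.639% and 0.590%, nearly all of it Npc2, and monocyte-like cells 0.516%, 0.869% and 0.827%, which placed them above AT2-like cells in CONV AsiDNA and FLASH. Because AM-like cells were also more frequent in CONV (16.0% of its cells, against 9.57% and 7.66%), they held 83.6% of the members' counts in assigned CONV cells, against 59.9% and 54.3%. T cell-like cells had a member above 0 in at most 0.801% of cells in any library.

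**Figure D1:**
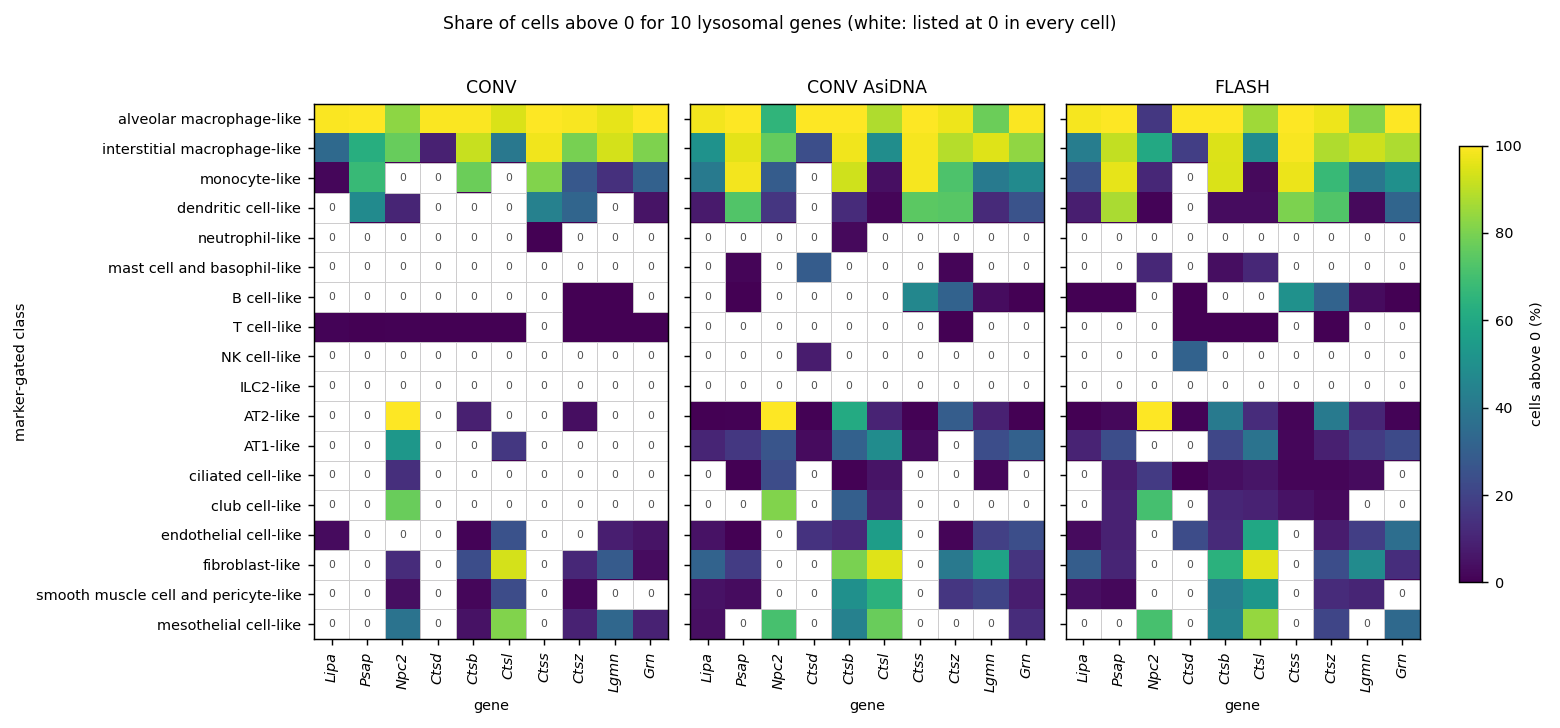
Share of cells above 0 (colour, in percent) for the 10 genes (columns) in the 18 marker-gated classes (rows) of CONV, CONV AsiDNA and FLASH; white squares with a 0 are listed at 0 in every cell of the class. CONV has 108 white squares of 180, CONV AsiDNA 77 and FLASH 69, and the row of AM-like cells has none in any library.

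In AM-like cells all 10 members were higher in CONV than in both other libraries, where 25.8% of the 6061 genes tested were. Psap, Ctsb, Ctsl and Lgmn, 4 of 10, were past 2-fold above both, against 2.11% of all genes, and 0 were past 2-fold below both, against 3.04%. The median log2 ratio of the members was 0.82 against CONV AsiDNA and 0.96 against FLASH (on CPM plus 10), while the median of all genes tested was -0.20 and -0.17. When the libraries were scaled to the median gene, the members' medians were 1.01 and 1.12. CONV AsiDNA and FLASH were close to each other, with a median log2 ratio of 0.06 between them, Npc2 excepted. The summed interstitial macrophage markers of AM-like cells stood at 254, 53.3 and 32.1 CPM, with 8, 5 and 2 of 14 in any cell. Their part in the result was not tested.

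Among the lipid handling genes, Psap stood at 12542, 5855 and 5905 CPM. A CONV cell held a median of 62 adjusted counts of Psap (quartiles 44 and 82), against 21 (14 and 36) and 23 (15 and 36), so the upper quartile of either other library lay below the lower quartile of CONV. Lipa stood at 1997, 1106 and 1250 CPM, 1.81-fold and 1.60-fold higher in CONV. Npc2 stood at 478, 288 and 66.7 CPM. It was the member that set CONV AsiDNA apart from FLASH, with a log2 ratio of 1.96 between them. The share of AM-like cells above 0 for Npc2 was 83.1% (80.6 to 85.3), 65.3% (61.5 to 68.9) and 16.0% (12.9 to 19.6). The 3 intervals did not overlap.

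Among the proteases, Ctsl was farthest apart, at 1754, 698 and 661 CPM. Its fold was 2.51 and 2.65. Ctsb stood at 4799, 2237 and 2152 CPM, with a median of 21, 8 and 8 adjusted counts per cell. Lgmn, the endopeptidase that trims cathepsins, stood at 865, 409 and 392 CPM. Ctsd, the aspartic protease, stood at 14225, 8255 and 8026 CPM, and the quartiles of a cell were 51 and 95 in CONV, and 21 and 52, then 22 and 50, in the others. The quartile ranges of Ctsd overlapped only at the edge between CONV and CONV AsiDNA, and not between CONV and FLASH. Ctss, the cathepsin of antigen presentation, stood at 6966, 4260 and 4092 CPM. Ctsz, a carboxypeptidase, and Grn were nearest to even, at 1.41-fold and 1.31-fold over CONV AsiDNA and 1.48-fold and 1.31-fold over FLASH.

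**Figure D2:**
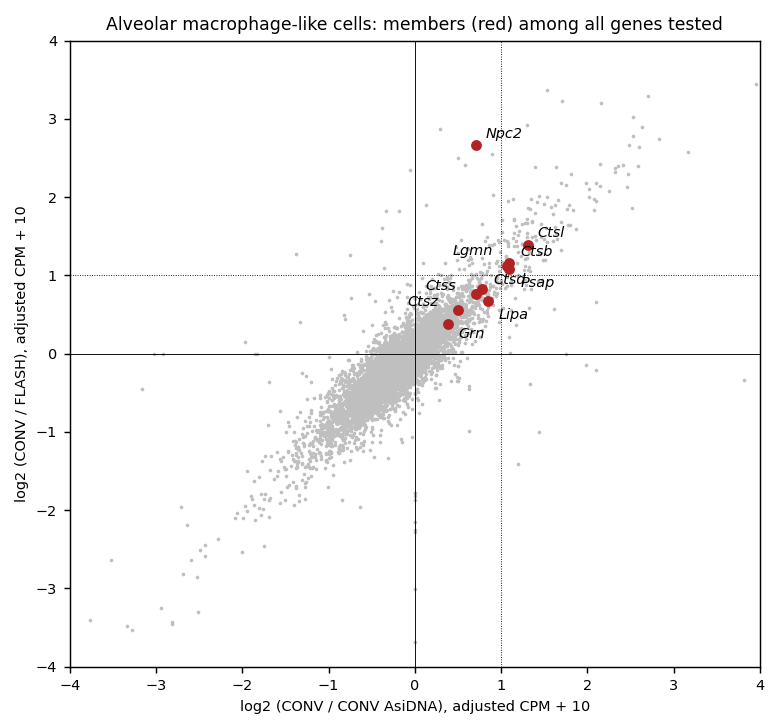
Log2 ratio of CONV over CONV AsiDNA (x axis) and of CONV over FLASH (y axis), on CPM plus 10, for the 6061 genes with at least 20 CPM in 1 library of AM-like cells (grey) and the 10 members (red); dotted lines mark 2-fold, and 9 genes lie outside the axes. The members all sit above and to the right of the zero lines, 4 of them past both dotted lines, and Npc2 stands off the diagonal.

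Most AM-like cells were above 0 for most members in each library, so shares were compared after each cell was thinned to 1000 adjusted counts, which no AM-like cell fell short of. At that depth the interval of CONV lay apart from and above both others for 8 of 10 members, against 4.41% of all genes tested. Ctsl was above 0 in 67.6% (64.6 to 70.4), 41.6% (37.8 to 45.5) and 43.5% (39.1 to 48.1), where the unthinned shares had been 94.5%, 88.2% and 85.6%. Lgmn was above 0 in 53.8%, 28.6% and 32.9%, against 96.2%, 77.7% and 81.5% unthinned. Npc2 was above 0 in 37.1%, 22.5% and 5.21%. Ctsd and Ctss, above 0 in 96.5% or more of the thinned cells of each library, were the members whose intervals overlapped.

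AM-like cells with more of Spp1, Gpnmb and Mfge8 above 0 than of Ear1, Krt79 and Cidec were called the Spp1 state. Those with the reverse were called the Ear1 state, and the split was chosen after the data were seen. As many of each were above 0 in 172 (16.9%), 119 (17.8%) and 75 cells (15.6%), which were in neither state. The Spp1 state held 746 cells in CONV (73.4%), 154 with AsiDNA (23.1%) and 68 in FLASH (14.2%), and the Ear1 state held 99 (9.73%), 395 (59.1%) and 337 (70.2%). Within each library every member was higher in the Spp1 state than in the Ear1 state. Psap was 1.59-fold, 2.02-fold and 2.50-fold higher there. Ctsl was 2.13-fold, 2.69-fold and 3.47-fold higher, and Grn, the nearest to even, 1.11-fold, 1.27-fold and 1.20-fold.

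Compared state by state, the distance between the libraries was smaller. In the Spp1 state 9 of 10 members were above both other libraries (27.3% of all genes were) and 0 were past 2-fold (1.03% of all genes were), and the members' median log2 ratio was 0.46 and 0.26. Psap stood at 13752, 9103 and 11475 CPM there, and Ctsd at 15476, 12544 and 14759 CPM. Ctsz was level, at 1408, 1284 and 1432 CPM, and was the member of 10 not above both. In the Ear1 state all 10 were above both (33% of all genes were), 1 of them past 2-fold, and the medians were 0.68 and 0.72. Psap stood at 8654, 4506 and 4592 CPM in the Ear1 state, and Ctsl, the gene past 2-fold, at 963, 455 and 459 CPM. The Ear1 state itself was not alike between libraries, as Spp1 stood at 11057 CPM in its CONV cells, against 3656 and 4360. In the Spp1 state Spp1 was near level, at 30006, 29678 and 28405 CPM. Other state markers differed there, with Ear1 at 336, 420 and 918 CPM and Mfge8 at 1822, 908 and 2253 CPM. The members took a median of 4.94%, 3.59% and 4.20% of a cell's counts in the Spp1 state, and 3.35%, 1.83% and 1.90% in the Ear1 state.

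**Figure D3:**
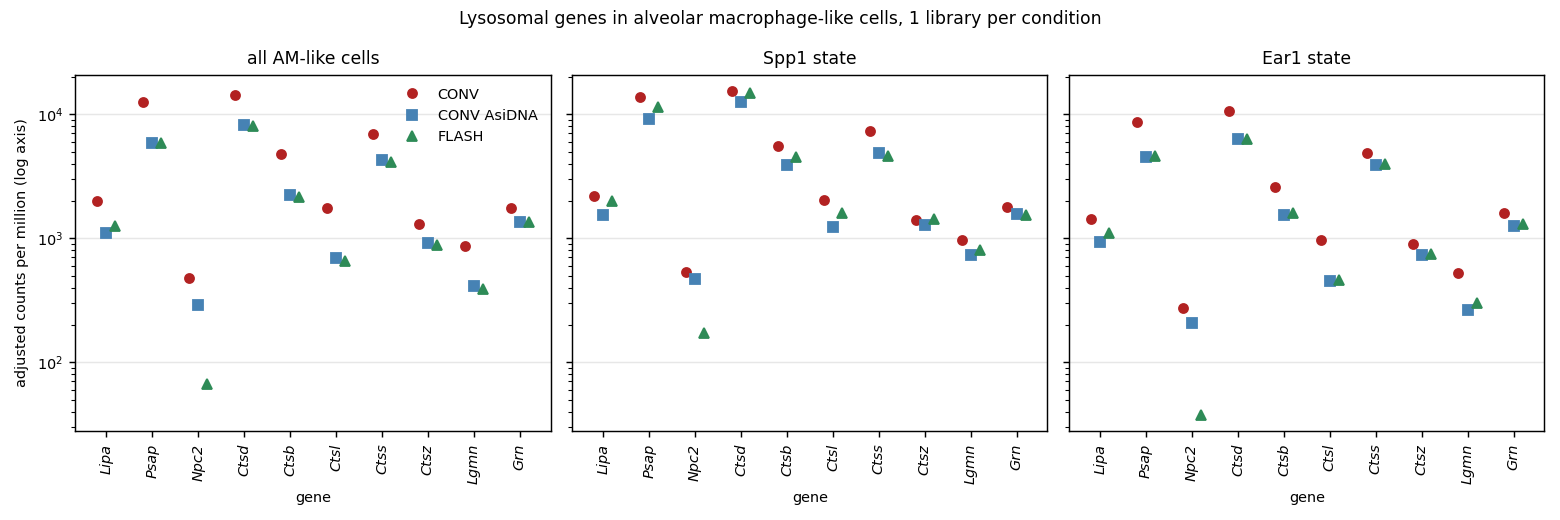
CPM (log axis) of the 10 genes in all AM-like cells, in the Spp1 state and in the Ear1 state, with 1 point per library and no error, as there is 1 library per condition. CONV is highest for all 10 genes in the left and right panels, and in the middle panel FLASH passes CONV for Ctsz and comes within 1.29-fold of it for Ctsl.

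**Figure D4:**
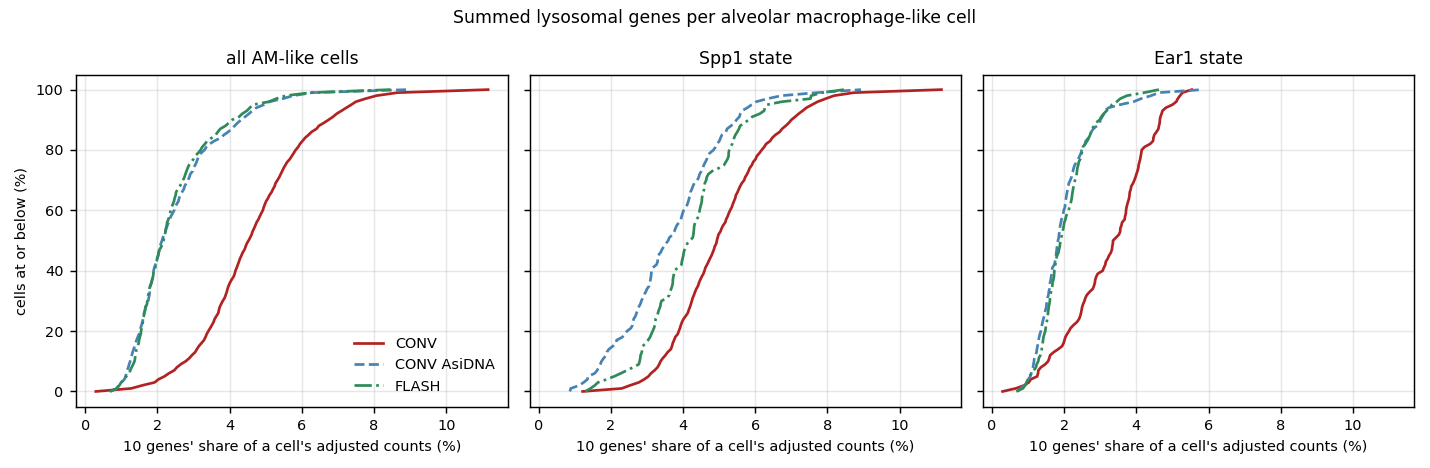
Cumulative share of AM-like cells (y axis, percent) by the share of a cell's adjusted counts that the 10 genes took (x axis, percent), for all cells, the Spp1 state and the Ear1 state. The CONV line lies to the right at the quartiles and the median of each panel, with a median of 4.52% over all cells, against 2.13% and 2.17%. It crosses at least 1 other line among the lowest cells of each panel and the CONV AsiDNA line among the highest cells of the Ear1 state.

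Other gene lists of the lysosome and of lipid handling were counted in AM-like cells against the same shares of all genes, with 59.6% of all genes tested below both other libraries. Of 16 subunits of the V-ATPase, the proton pump of the lysosome, 16 were higher in CONV than in both others and 0 were past 2-fold, with a median log2 ratio of 0.20 and 0.13. Of 25 glycosidases, sulfatases and sphingolipid hydrolases tested, 19 were higher in CONV than in both others. Of 14 other lysosomal proteases tested, 9 were higher in CONV and 0 were past 2-fold. Of 15 genes of the lysosomal membrane and cholesterol export, 9 were higher in CONV and 1 was past 2-fold, the tetraspanin gene Cd63, at 1033, 491 and 433 CPM. Of 10 sorting and transcription factor genes tested, 1 was higher in CONV than in both others, the sorting receptor gene Igf2r, and 6 were lower than both. Igf2r was above 0 in 12.5% and 3.44% of cells and listed at 0 in FLASH. Of 15 genes of lipid uptake, storage and efflux, 7 were higher and 7 lower in CONV. Fabp5, a fatty acid binding protein, stood at 2914, 1308 and 1117 CPM, and Abca1, the cholesterol efflux pump, at 114, 273 and 268 CPM, which was 2-fold or more below both. Apoe was also past 2-fold above both but was above 0 in 1.57%, 0.599% and 0.208% of AM-like cells. Of 5 cystatins, inhibitors of the cysteine cathepsins, 2 were tested and both were higher in CONV, with 0 past 2-fold against both others and a median log2 ratio of 0.82 and 1.73. Of the 28 ubiquitous genes, 0 were past 2-fold above and 1 was past it below, the ribosomal protein gene Rps27, at 0.381, 28.6 and 26.6 CPM.

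In IM-like cells the CPM of the members was highest in CONV, and a small cluster carried most of that difference. Of the 9 members above 0 in at least 25% of IM-like cells of 1 library, 8 were higher in CONV than in both others by CPM, where 38.2% of all such genes were. The cluster, led by Mmp12, Gpnmb and Mfge8 and with Ctsl among its 10 leading genes, held 100, 28 and 13 cells, of which 42, 16 and 8 were IM-like and 21, 4 and 2 AM-like by the gate. It was left unnamed, since its leading genes hold AM markers and no IM marker. Where clusters replaced the gate, it was counted as interstitial macrophage. The members took 6.77%, 5.25% and 5.61% of its counts. Without its cells, an alternative added after the data were seen, 3 of the 9 members (Npc2, Ctss and Lgmn) were higher in CONV than in both others, where 38.6% of all such genes were. The members then took 1.102%, 1.178% and 1.047% of the counts of IM-like cells, against 1.73%, 1.36% and 1.20% with them. Psap stood at 2489, 2268 and 2088 CPM over all IM-like cells and at 1336, 1900 and 1730 CPM without the cluster. Ctsd stood at 1759, 791 and 936 CPM and, without the cluster, at 25.0, 396 and 455 CPM, so both genes were lowest in CONV among the remaining cells. Ctss stood at 4671, 3658 and 3115 CPM and kept its order without the cluster, at 3531, 3126 and 2791 CPM. By share of cells, Psap was above 0 in 62.7% (57.9 to 67.3), 95.9% (93.5 to 97.6) and 90.7% (86.9 to 93.6) of all IM-like cells, and Ctsd in 9.26%, 23.9% and 18.7%. The 39 CONV cells with Ctsd had a median of 67 adjusted counts and none of 1 to 3, while 40 of 99 such cells in CONV AsiDNA and 22 of 60 in FLASH had 1 to 3. These 39 cells had a median of 4 AM markers above 0, against 1 in the other CONV IM-like cells. Over all IM-like cells the AM markers summed to 5085, 2117 and 2932 CPM, with 11, 11 and 8 of 16 in any cell, and the IM markers to 29013, 32802 and 33791 CPM, and the part of other cells in the result was not tested. Of the IM-like cells of all libraries, 76 of 1156 lay near the limit of the gate.

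Outside both macrophage classes CONV was the lowest library for most pairs of a member and a class that had values. Over 14 such classes, 45 of 140 pairs of a member and a class were listed at 0 in all 3 libraries, CONV was below both others in 64 and above both in 16. Of all gene and class pairs above 0 in any library, 29.7% were below both and 36.6% above both. In 37 of the 64 the member was listed at 0 in CONV. A low level and a value removed from the table cannot be told apart there. Of the 33 pairs above 0 in at least 25% of cells of 1 library, CONV was below both others in 29, where 40.5% of all such gene and class pairs were, and above both in 4, where 39% were. Of the 29, 7 were listed at 0 in CONV and 10 were above 0 in at least 25% of CONV cells. The pairs share libraries, enter through the library where they are high and include values the list was selected on, so the counts are a description and nothing is read from the shares beside them. In monocyte-like cells 8 of 8 such members were lower in CONV, where 40.7% of all genes were.

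In monocyte-like cells Psap stood at 1470 CPM (n = 58 cells), 2858 (n = 332) and 2701 (n = 419). Lipa was above 0 in 1.72% of cells (0.0436 to 9.24), 41% (35.6 to 46.5) and 25.1% (21.0 to 29.5). Ctsz was above 0 in 27.6% (16.7 to 40.9), 72.0% (66.8 to 76.8) and 67.3% (62.6 to 71.8). For both genes the interval of CONV lay below those of the other libraries. The summed AM markers stood at 850, 588 and 606 CPM in these cells, 2 of 16 in any CONV cell, and their part in the result was not tested.

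In B cell-like cells both members above the 25% limit, Ctss and Ctsz, were lower in CONV, where 59.5% of all genes were. Ctss, which trims the invariant chain of MHC class II in B cells, was listed at 0 in all 1345 CONV cells and was above 0 in 46.3% of 1604 cells with AsiDNA (43.8 to 48.7) and 50.7% of 1156 in FLASH (47.8 to 53.6). Ctsz was above 0 in 0.0743% (0.00188 to 0.414), 31.5% (29.2 to 33.8) and 31.7% (29.0 to 34.4). The libraries filled 2 clusters of these cells unequally, one led by Cd79a and Ebf1 with 1084, 759 and 506 cells and one led by Iglc1 and Ms4a1 with 258, 841 and 643. In both clusters Ctss and Ctsz were listed at 0 in CONV, and Ctss was above 0 in 42.8% and 46.6% of the other libraries' cells in the former and 49.6% and 54.3% in the latter. The median total of all these cells was 2830, 2964 and 3042. None of the 16 AM and 14 IM markers was above 0 in any B cell-like cell of CONV or CONV AsiDNA, while in FLASH 9 AM markers were, summing to 12.1 CPM, and 0 IM markers. Ctss was listed at 0 in the T cell-like cells of all 3 libraries, whose median totals were 3301, 3558 and 3504.5.

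In fibroblast-like, endothelial cell-like and smooth muscle cell and pericyte-like cells CONV was again the lowest library for each member above the 25% limit except Ctsl in fibroblast-like cells, where 46.6%, 50.8% and 32.7% of all genes were lowest in CONV by class. Ctsb in fibroblast-like cells was above 0 in 23.8% of 63 cells (14.0 to 36.2), 79.8% of 119 (71.5 to 86.6) and 63.8% of 174 (56.2 to 70.9). Lgmn there was above 0 in 28.6%, 58.0% and 48.3%. Ctsl did not part the libraries in these cells, above 0 in 93.7% of cells or more in each and at 1281, 1204 and 1008 CPM. In the same cells Lipa was listed at 0 in CONV and was above 0 in 31.9% and 29.3% of cells in the others, Psap was listed at 0 in CONV and stood at 115 and 138 CPM, and Npc2 stood at 159 CPM in CONV and was listed at 0 in both others. In endothelial cell-like cells Ctsl was above 0 in 25.1% (20.8 to 29.9), 55.6% (50.9 to 60.3) and 59.7% (55.1 to 64.1), and Grn in 5.35%, 23.8% and 36.2%. The libraries held these cells in different clusters, as one led by Sele held 132, 22 and 1 cells and one led by Apln held 69, 169 and 179. Ctsl was above 0 in 31.9%, 81.7% and 77.7% of the Apln cluster and in 9.26%, 37.6% and 46.5% of a cluster led by Vwf (162, 242 and 275 cells), but in 38.6% and 40.9% of the Sele cluster in CONV and CONV AsiDNA. In smooth muscle cell and pericyte-like cells Ctsb was above 0 in 1.92%, 50.0% and 42.9%. The summed IM markers of endothelial cell-like cells were 879, 1910 and 2609 CPM, in the order of Grn, and their part in the result was not tested.

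By CPM, Npc2 was the exception among epithelial cells other than ciliated ones. In AT2-like cells it stood at 9517, 5951 and 5517 CPM, with a median of 46, 24 and 23 adjusted counts per cell, and it was above 0 in 100%, 100% and 99.7% of cells. In AT1-like cells it stood at 2955 and 328 CPM and was listed at 0 in all 128 FLASH cells, with 53.0% of CONV cells (43.5 to 62.3) and 26.5% of CONV AsiDNA cells (16.5 to 38.6) above 0. The AT2 markers were ordered as Npc2 in these cells, summing to 2378, 164 and 138 CPM with 8, 3 and 2 of 9 in any cell and Cxcl15 at 0 in each library, and their part in the result was not tested. Club cell-like cells had Npc2 at 892, 738 and 623 CPM, in 77.0%, 81.1% and 70.6% of cells, so CONV was highest by CPM and not by share. Ciliated cell-like cells had Npc2 at 111, 140 and 107 CPM, in 13.7%, 23.1% and 17.2% of cells, so CONV was not highest there. Against this, Ctsb in AT2-like cells was above 0 in 8.93% of cells (5.92 to 12.8), 61.2% (55.7 to 66.5) and 41.3% (36.3 to 46.4), and Ctsz in 3.78%, 29.4% and 41.3%. The summed AM markers of AT2-like cells stood at 0, 74.8 and 115 CPM, with 0, 4 and 11 of 16 in any cell, each in under 5% of cells, and their part in the result was not tested.

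**Figure D5:**
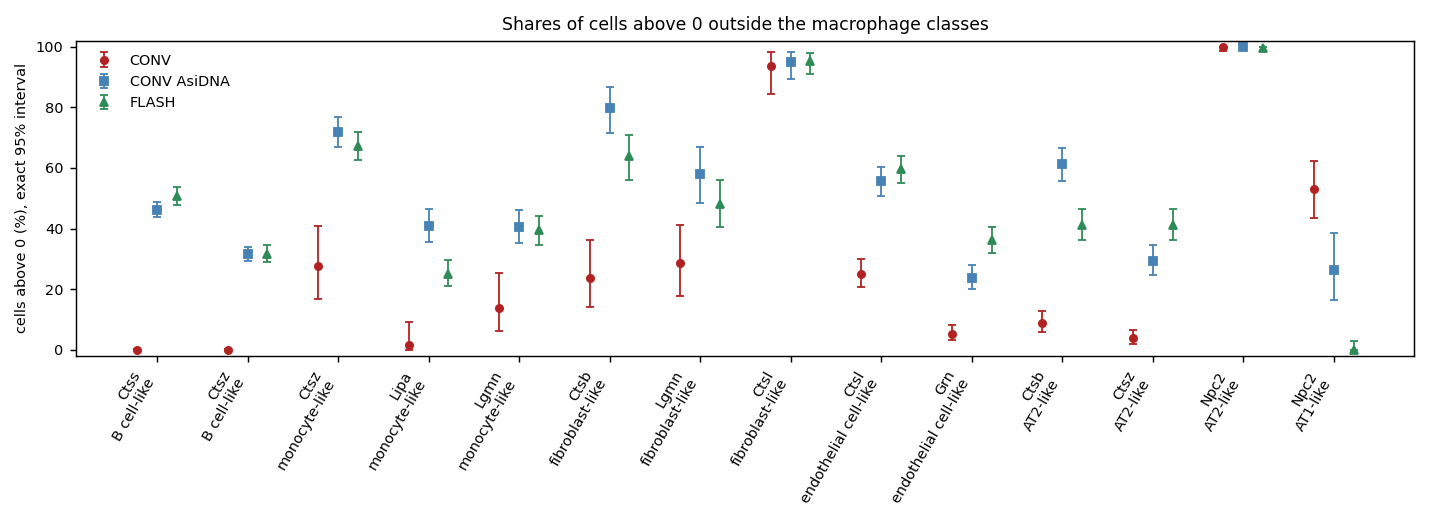
Share of cells above 0 (y axis, percent) with exact 95% intervals, which cover the sampling of cells, for 14 pairs of a member and a class outside the macrophages. CONV is lowest for the pairs of Ctss, Ctsz, Lipa, Lgmn, Ctsb and Grn, close to the others for Ctsl in fibroblast-like cells, and highest for Npc2 in AT1-like cells.

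Zeros over whole classes were among the values the list was selected on, and the pairs enter through the library where they are high. The counts of members are therefore a description, and nothing is read from the shares beside them. Over classes with at least 30 cells in each library, 7 of 52 member and class pairs were listed at 0 in every CONV cell while above 0 in at least 25% of the cells of another library. The same held for 0.166% of the pairs of all genes in CONV, for 0 of 47 member pairs in CONV AsiDNA (0.131% of all genes) and for 1 of 50 in FLASH (0.219%). The CONV pairs were Npc2 in monocyte-like, Ctss in B cell-like, Ctsd in NK cell-like, Ctsb and Grn in AT1-like, Ctsb in club cell-like and Lipa in fibroblast-like cells. The CONV pairs were also at 0 when clusters or a stricter gate defined the classes. The pair in FLASH was Npc2 in AT1-like cells, and it was lost with clusters, where 2.26% of 133 FLASH cells were above 0. The summed AM markers of AT1-like cells stood at 64.4, 1070 and 376 CPM, 2, 5 and 4 of 16 in any cell, and their part in the zeros of Ctsb and Grn was not tested. In NK cell-like cells the summed AM markers stood at 0, 57.9 and 82.1 CPM, with 0, 1 and 1 of 16 in any cell. Club cell-like cells had them at 0, 27.2 and 9.58 CPM, with 0, 1 and 2 of 16 in any cell. In fibroblast-like cells they stood at 300, 360 and 383 CPM, with 1 (Mfge8), 2 and 2 of 16 in any cell. Their part in the zeros of these classes was not tested. Ctsd, which nearly all cells use, was listed at 0 in the monocyte-like, dendritic cell-like and fibroblast-like cells of all 3 libraries.

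Genes that every cell uses were listed at 0 in whole classes too. Of 28 ubiquitous genes, 23 of 395 pairs were listed at 0 by the same rule in CONV, 26 of 397 in CONV AsiDNA and 0 of 359 in FLASH. The 0 in FLASH holds for these 28 genes only. Over all genes FLASH had 72 of 32859 pairs listed at 0, against 52 of 31372 in CONV and 42 of 32032 in CONV AsiDNA. In CONV the ubiquitous genes at 0 were ferritin chains, actin and mitochondrial genes. Fth1 was listed at 0 in the CONV dendritic cell-like cells, against 50.5% and 71.6% of cells in the others, Ftl1 in the CONV AT2-like cells, against 30.3% and 52.2%, and Actb in the club cell-like cells of CONV and CONV AsiDNA, against 31.8% in FLASH. In CONV AsiDNA 24 of the 26 were mitochondrial, and the others were Actb and Fau.

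Zeros were also counted by how abundant a gene was in the library as a whole. Among the 100 genes with the highest totals in CONV, 28 of 1249 pairs were listed at 0 (2.24%), against 24 of 30123 among all other genes (0.0797%). The 28 include pairs of members, and zeros were among the values the list was selected on. The shares were 0.235% and 0.127% in CONV AsiDNA and 0.648% and 0.202% in FLASH, so they leaned the same way in each library. The cause was not tested. Ctsd ranked 28, Psap 30, Ctss 76 and Ctsb 98 by total in CONV, so 4 members were among its 100 most abundant genes, and 0 were in either other library, where Psap ranked 114 and 132. Of the 7 CONV pairs, 4 were of these genes and the others were of Npc2 (rank 150), Grn (227) and Lipa (234), and Psap gave none of the 7. Values of 1 were also scarcer in CONV among cells not gated as AM-like or IM-like, to very different degrees. These cells include the 223, 290 and 233 unassigned cells, whose class is not known. Of the cells outside both gates with a member above 0, the share that held a value of 1 was lowest in CONV for all 10 members. For Ctsd it was 1.89%, 37.6% and 39.6% and for Lipa 19.2%, 68.3% and 69.2%, the widest gaps. For Psap it was 4.79%, 5.75% and 9.10% and for Ctsl 27.3%, 35.0% and 35.9%. The only such CONV class with Ctsd was T cell-like (0.0728% of cells), so nearly all its 53 CONV cells were unassigned. Of the 78 CONV cells with Lipa, 1 was monocyte-like, 11 T cell-like and 11 endothelial cell-like, and the rest were unassigned. The widest gaps thus rest mostly on unassigned CONV cells. Whether the adjustment of the deposited values took part in the lower shares of CONV was not tested, and loss of a gene from a cell class and its removal from the table cannot be told apart in these values.

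The members followed each other to differing degrees over classes and libraries. Over 52 points of a class and a library with at least 30 cells, on log2 of CPM plus 10, Pearson's r between pairs of members ran from 0.18 for Lipa and Npc2 to 0.90 for Lipa and Grn. Npc2 was at 0.39 or below with every other member, and Ctsl was at 0.28 with Ctss and at 0.49 with Ctsd and with Psap. The genes most like the members' sum were Ddi2 (r = 0.85), Arl8b (0.84), a small GTPase that moves lysosomes along microtubules, Akr1a1 (0.82), Dnajb14 (0.81) and Ywhag (0.80). The gene most like a single member was Grn for Lipa, Gpr137b for Psap (0.91), Tfcp2l1 for Npc2 (0.79), Lpl for Ctsd (0.92), Acp2 for Ctsb (0.89) and for Lgmn (0.90), Nrp2 for Ctsl (0.89), Rassf4 for Ctss (0.95), Ctss for Ctsz (0.89) and Ctsa for Grn (0.91). The points share their 3 libraries and their adjustment, and these values are descriptions.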

How the data were processed

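Lung cells were captured with the 10x Genomics 3′ system. The submitters' processing notes name Cell Ranger 6.0.0 and mm10, and the methods name R and Seurat. The authors deposited natural log values of 1 plus a whole number, which were converted back (tolerance 1e-06). The sources used here do not give how they were adjusted. The design had assumed raw counts, so no count model was used. The other 4 tables of the series do not share the gene identifiers of these libraries and were left out: a count table whose 12 columns match no sample given here, and tables of the authors' own fold changes and p-values.

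Cells with at least 200 genes above 0 were gated on class markers (at least 3 markers, lead of 0.1 over the next class). Cells that matched no class clearly (746) were left out of the values by class. They were kept in the library totals and in the counts of values of 1. No doublet caller was used, so doublets remain possible. Log2 ratios were taken on CPM plus 10 for genes with at least 20 CPM in 1 library, and 2-fold against both others was the limit used. The genes named are the 10 members, up to 3 genes per list past 2-fold, ubiquitous genes listed at 0 and the genes most like the members, and a gene that this rule names is not reported here. The members and lists were chosen with earlier results of these data known. Scripts were checked on simulated data. Python 3.11.15, numpy 2.4.6, scipy 1.17.1, pandas 2.3.3, scikit-learn 1.9.0, igraph 0.11.9 and leidenalg 0.10.2 were used.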

Additional observations from a re-analysis of the deposited data

Results flagged for a closer look

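Each member was higher in CONV than in both other libraries in AM-like cells and lower than both in at least 1 other class where it was above 0 in 25% of cells of 1 library. This held in 2 of 3 other classes for Lipa, 2 of 3 for Psap, 1 of 5 for Npc2, 1 of 1 for Ctsd, 6 of 7 for Ctsb, 3 of 5 for Ctsl, 3 of 4 for Ctss, 5 of 6 for Ctsz, 2 of 3 for Lgmn and 4 of 5 for Grn. Of these 29 class values 7 are listed at 0 in CONV, among them the only ones of Npc2 and Ctsd. Whether a listed 0 is a low level cannot be told. Of the 1223 genes above both in AM-like cells and present in another class, 72.9% met the same rule. The difference between classes was not tested, as there is 1 library per condition.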

How the results depend on the processing

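The summed level of the members in AM-like cells stayed between 4.63% and 4.68% for CONV, 2.49% and 2.55% with AsiDNA and 2.44% and 2.50% for FLASH under the alternatives of class, filter and weight. Of 180 recomputed ratios of single members in these cells, 179 were above 0, and 165 stayed on the same side of 2-fold. The exception in direction was Ctsz over FLASH in the Spp1 state, at -0.024. Scaling by the median gene gave medians of 1.01 over CONV AsiDNA and 1.12 over FLASH, and leaving out the 6% of cells with the highest totals gave 1.11 over FLASH. The states, added after the data were seen, gave 0.46 and 0.26 in the Spp1 state with 0 members past 2-fold, and 0.72 over FLASH in the Ear1 state with 1 past it. The number of members past 2-fold was 4 under every alternative but the states. Pairs listed at 0 were 17 (CONV), 1 (CONV AsiDNA) and 2 (FLASH) when presence began at 10% of cells, and 0 in FLASH when clusters replaced the gate, where Npc2 was above 0 in 2.26% of AT1-like cells; the cause was not tested. In IM-like cells 3 members in place of 8 were highest in CONV without the cluster led by Mmp12. At a thinned depth of 500 the CONV interval lay apart for 9 members, and 2.64% of all genes lay above both, a share not matched for level. Ctsd and Ctss were among the members apart at this depth, and Grn was not. Grn was above 0 in 56.0% (52.9 to 59.1) of CONV cells, against 50.8% (46.3 to 55.4) in FLASH.

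No paired analysis was possible because each condition has 1 library. Depth cannot be read from the adjusted values.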
